A study of Mus musculus with 6 samples.

Results

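The genes described here encode laminins, nidogens and perlecan, the non-collagen scaffold of basement membranes, measured in the mammary stroma of Rarb-null mice and wild-type littermates. They were taken as every probe set that the authors' deposited table assigns to Lama2, Lama4, Lama5, Lamb1 (listed there under its older name Lamb1-1), Lamb2, Lamb3, Lamc1, Nid1, Nid2 or Hspg2 alone. That gave 17 probe sets of 10 genes, out of 45037 probe sets and 20519 genes measured. The arrays came from cleared mammary fat pads at 4 weeks of age, 3 from Rarb -/- mice, which lack retinoic acid receptor beta and are called Rarb-null, and 3 from Rarb +/+ littermates, called wild type. A note attached to all 6 samples also links the mice to ErbB2 without naming an allele or transgene, and the number of mice behind an array is unknown here. For that reason a p-value speaks of the variation among these 6 arrays, which may be technical. The question set by the series title is how stromal expression differs when Rarb is missing. Each value is a deposited log2 RMA value, 1 log2 unit being a 2-fold difference in signal, group values are means ± SD (n = 3 each), and every difference is Rarb-null minus wild type. Because probe sets differ in how well they capture their transcript, the level of one gene says nothing of its amount relative to another.

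Laminins are cross-shaped secreted trimers of an alpha, a beta and a gamma chain. They polymerise on the cell surface, where integrins and dystroglycan hold them. Nidogens bind the gamma chain and tie the laminin network to collagen IV, and perlecan, a large heparan sulfate proteoglycan, binds both and holds growth factors. In a mammary fat pad such sheets surround each adipocyte, the walls of blood vessels, nerves and muscle fibres, and separate the epithelial ducts from the stroma. Lamb1 is also known as a gene induced by retinoic acid in mouse teratocarcinoma cells, through a response element upstream of its start site.

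The arrays differed from each other in ways that the genotype labels did not follow. The 7 measured cell cycle markers averaged 9.51, 9.63 and 6.52 on the Rarb-null arrays, in the order of their replicate numbers, and 6.90, 9.55 and 6.77 on the wild-type arrays. Brown fat markers were highest on Rarb-null replicate 3, at a mean of 11.31, against 7.01 to 9.01 on the other 5 arrays, and skeletal muscle markers were highest on wild-type replicate 2, at 10.52, against 6.58 to 9.04 elsewhere. Adipocyte and fibroblast markers were bright on every array, at list means of 12.5 to 13.1 and 12.1 to 12.6. Markers of luminal mammary epithelium were also bright, at 11.58 to 11.95 in Rarb-null and 10.72 to 12.04 in wild-type stroma, although the fat pads are labelled cleared. Rarb itself read 6.50, 6.61 and 7.41 on Rarb-null arrays and 6.95, 6.01 and 6.65 on wild-type arrays. The position of its single probe set relative to the deletion is unknown here, so these values check nothing about the labels. RNA of a whole tissue cannot tell fewer cells of a type from less RNA per cell.

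No laminin, nidogen or perlecan probe set passed the threshold in the comparison of genotypes. In limma, 0 of the 17 had an adjusted p under 0.05, as had 0% of all 45037 probe sets, and the smallest adjusted p among the 17 was 0.908. Before adjustment, 2 of the 17 had a p under 0.05, the single probe set of Lamb2 and the dimmer of the 2 of Hspg2, where all probe sets gave 5.22%. The groups did not overlap at 3 of the 17, all lower on Rarb-null arrays (Lamb2, the dimmer Hspg2 set and the brighter Nid1 set), where 10.4% of all probe sets did not overlap in either direction and 5.86% did not overlap with lower Rarb-null values. By the brightest probe set of each gene, 6 of the 10 genes had a lower Rarb-null mean (52.9% of all genes did), with a median difference of -0.06 log2 against -0.01 over all genes. In the authors' deposited table the same 2 probe sets had a p-value under 0.05, 0.0210 for Lamb2 and 0.0417 for the dimmer Hspg2 set. Of all 45037 probe sets, 2452 (5.44%) had one there.

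**Figure D1:**
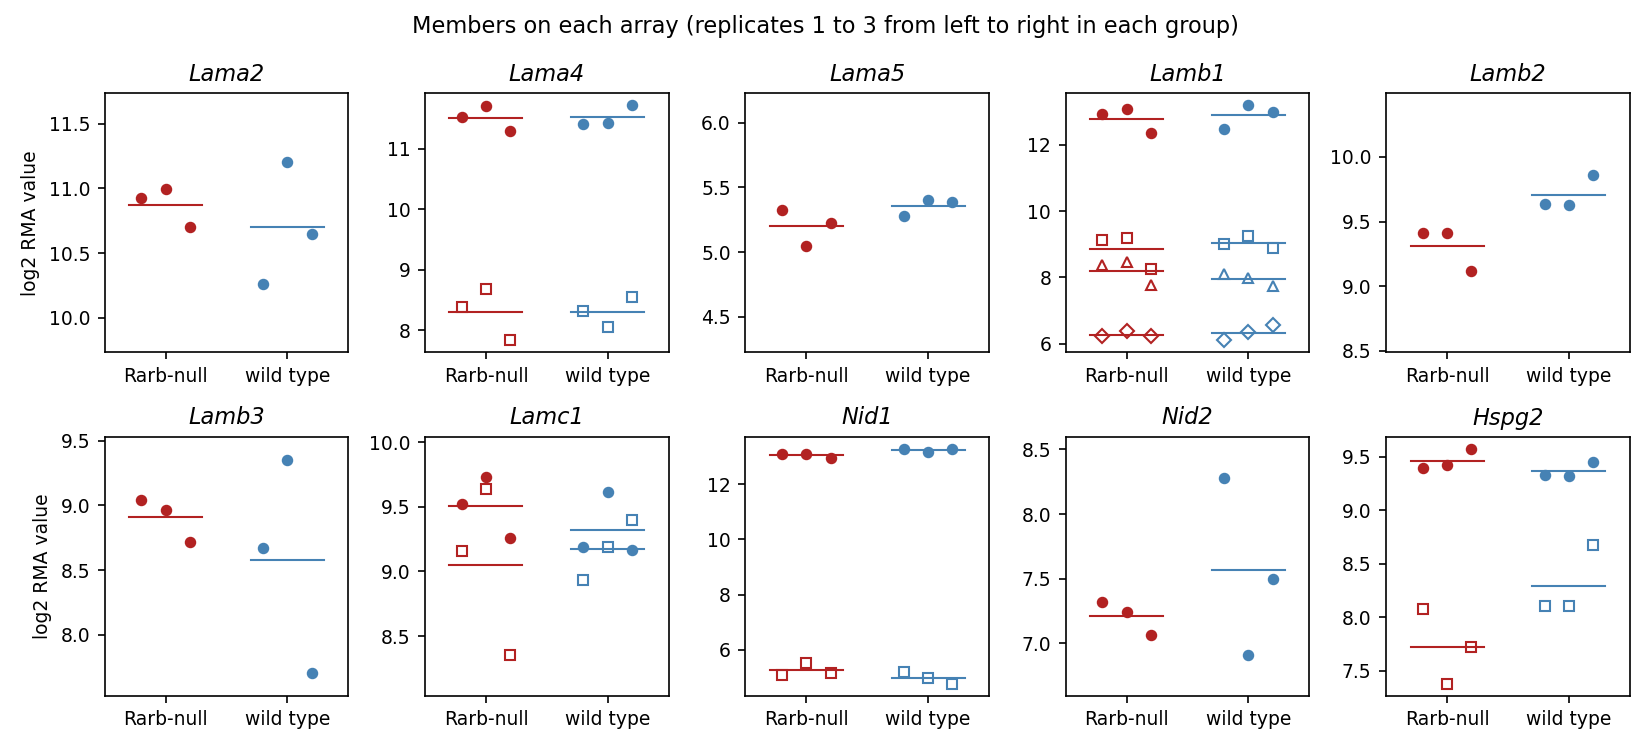
Log2 RMA value of every member probe set on each array, Rarb-null left (red) and wild type right (blue), with replicates 1 to 3 from left to right; horizontal lines are group means, filled circles the brightest probe set of the gene and open symbols its other probe sets, on a separate scale in each panel. The 3 Rarb-null values of Lamb2 (9.12 to 9.41) lie below the 3 wild-type values (9.63 to 9.86), while Lamb3 and Nid2 spread more widely within wild type than between the groups.

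Among the alpha chains, which carry the sites that cells bind, no difference stood out from the spread. Lama2, the alpha chain of muscle, nerve and stromal cell basement membranes, read 10.92, 10.99 and 10.70 on Rarb-null arrays and 10.26, 11.20 and 10.64 on wild-type arrays. Both the highest and the lowest of these values were wild type, and the difference was 0.17 log2, with a 95% interval from -0.38 to 0.72. Without wild-type replicate 1 the difference was -0.05 log2. Lama4, the alpha chain of vessel walls and adipocytes, read 11.53, 11.71 and 11.30 on Rarb-null arrays and 11.41, 11.44 and 11.72 on wild-type arrays at its brighter probe set. The mean was 11.51 ± 0.20 in Rarb-null and 11.52 ± 0.17 in wild-type stroma, and the interval of the difference, from -0.36 to 0.34 log2, excluded a change of 1.5-fold in either direction. The second Lama4 probe set differed by -0.01 log2, with a wider interval from -0.56 to 0.54. Lama5, an alpha chain of vessels and of epithelium, was dim at its only unambiguous probe set, at 5.33, 5.05 and 5.22 on Rarb-null arrays and 5.28, 5.40 and 5.39 on wild-type arrays, and a filter on dim probe sets removed it. A further 2 probe sets that the authors' table assigns jointly to Lama5 and a provisional locus had group means of 7.90 and 7.99 on Rarb-null arrays and 7.91 and 8.06 on wild-type arrays, and differed by -0.01 and -0.07 log2.

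None of the beta chains passed the threshold. Lamb2, the beta chain of vessel smooth muscle and of the nerve-muscle junction, read 9.41, 9.41 and 9.12 on Rarb-null arrays and 9.63, 9.63 and 9.86 on wild-type arrays. All 3 Rarb-null values lay below all 3 wild-type values. The means of 9.31 ± 0.17 in Rarb-null and 9.71 ± 0.13 in wild-type stroma differed by -0.39 log2, a fold of 0.762, with a standard error of 0.13. Its 95% interval ran from -0.70 to -0.08, and limma gave an unadjusted p of 0.0195 and 0.908 after adjustment. With 1 array left out the difference ran from -0.44 to -0.29 log2. Adipocyte markers had a lower Rarb-null mean in 8 of 8 genes and smooth muscle and pericyte markers in 7 of 8. Skeletal muscle markers also did in 7 of 8, where 52.9% of all genes did, and 0 of any of these lists passed. The adipocyte list averaged 12.60 to 12.72 on Rarb-null arrays and 13.06, 12.53 and 13.07 on wild-type arrays. It was thus lowest on wild-type replicate 2, where Lamb2 lay above all Rarb-null values. Smooth muscle and pericyte markers averaged 10.10 to 10.52 on Rarb-null arrays, lowest on replicate 3 as for Lamb2, and 10.55 to 10.57 on wild-type arrays. Skeletal muscle markers averaged 6.82, 7.55 and 9.04 on Rarb-null arrays, highest on replicate 3, where Lamb2 was lowest. On wild-type arrays they ran from 6.58 on replicate 3, where Lamb2 was highest, to 10.52 on replicate 2. The part of these cell types in the Lamb2 values was not tested.

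Lamb1, a widely expressed beta chain and the retinoic acid-induced gene named above, read 12.93, 13.08 and 12.35 on Rarb-null arrays and 12.48, 13.19 and 13.00 on wild-type arrays at its brightest probe set. Each group held 1 lower and 2 higher arrays, so the groups overlapped, and the difference of -0.10 log2 had a 95% interval from -0.69 to 0.48. Its other 3 probe sets differed by -0.19, 0.26 and -0.05 log2, and the signs thus disagreed within the gene. Without Rarb-null replicate 3 the difference of the brightest set was 0.11 log2.

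Lamb3, the beta chain of the laminin that anchors epithelial cells to their basement membrane, read 9.04, 8.96 and 8.72 on Rarb-null arrays and 8.67, 9.36 and 7.70 on wild-type arrays. The wild-type arrays alone spanned the whole range of the 6 values. The difference was 0.33 log2 (95% interval -0.55 to 1.22), and its direction hung on 1 array: it was -0.10 log2 without wild-type replicate 3 and 0.72 log2 without wild-type replicate 2. The same pair of arrays was extreme for luminal epithelial markers, 7 of 8 of which were higher by the Rarb-null mean, with 0 passing. Over all genes, 52.9% were lower by that mean. Relative to the mean of the 6 arrays, the luminal list stood at 0.23, 0.40 and 0.03 log2 on the Rarb-null arrays. On the wild-type arrays it stood at -0.33, 0.50 and -0.82 log2. Basal epithelial markers stood at 0.42, 0.40 and -0.62 log2 on Rarb-null arrays and at -0.23, 0.74 and -0.71 log2 on wild-type arrays, with 4 of 6 genes higher and 0 passing. The part of epithelial RNA in the Lamb3 values was not tested.

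Lamc1, the gamma chain shared by most laminins and the one nidogens bind, had 2 probe sets of opposite sign. The brighter read 9.52, 9.73 and 9.26 on Rarb-null arrays and 9.19, 9.61 and 9.16 on wild-type arrays. They differed by 0.18 log2 (95% interval -0.23 to 0.59). The other read 9.16, 9.64 and 8.35 on Rarb-null arrays and 8.93, 9.19 and 9.40 on wild-type arrays. It differed by -0.13 log2, and its lowest value was that of Rarb-null replicate 3. Without that array its difference was 0.22 log2.

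Nidogen 1 had a bright probe set at which the groups did not overlap by a small margin. Nid1 read 13.11, 13.09 and 12.95 on Rarb-null arrays and 13.28, 13.17 and 13.26 on wild-type arrays. The highest Rarb-null value thus lay just under the lowest wild-type value. The means of 13.05 ± 0.09 in Rarb-null and 13.24 ± 0.06 in wild-type stroma differed by -0.19 log2, and the 95% interval ran from -0.43 to 0.05 (adjusted p = 0.909 in limma). A dim probe set of Nid1, at means of 5.27 in Rarb-null and 4.99 in wild-type stroma, differed by 0.28 log2, and a probe set assigned jointly to Nid1 and a provisional locus by -0.25 log2, with overlapping groups in both. Nid2, the second nidogen, read 7.32, 7.24 and 7.06 on Rarb-null arrays and 8.28, 6.91 and 7.50 on wild-type arrays. Its difference of -0.36 log2 rested on wild-type replicate 1 and was 0.00 log2 without it.

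Perlecan was the member whose probe sets disagreed most. The brighter Hspg2 probe set read 9.39, 9.43 and 9.57 on Rarb-null arrays and 9.32, 9.32 and 9.45 on wild-type arrays. It differed by 0.10 log2 (95% interval -0.15 to 0.35). The dimmer one read 8.07, 7.38 and 7.72 on Rarb-null arrays and 8.11, 8.11 and 8.68 on wild-type arrays. Its groups did not overlap, but Rarb-null replicate 1 lay just under the lowest wild-type value. This was the largest difference among the 17 probe sets, -0.57 log2 or a fold of 0.672. Its 95% interval ran from -1.11 to -0.04, and limma gave an unadjusted p of 0.0388 and 0.908 after adjustment. With 1 array left out it ran from -0.75 to -0.38 log2. The name of the dimmer probe set, like that of the brightest of Lamb1, ends in _s_at, which in Affymetrix's naming marks probes shared by more than one transcript. The gap between the 2 probe sets within an array, a comparison chosen after their values were seen, was 1.74 ± 0.38 log2 in Rarb-null and 1.07 ± 0.26 log2 in wild-type stroma. It follows from the values just given and is a description, with no test.

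**Figure D2:**
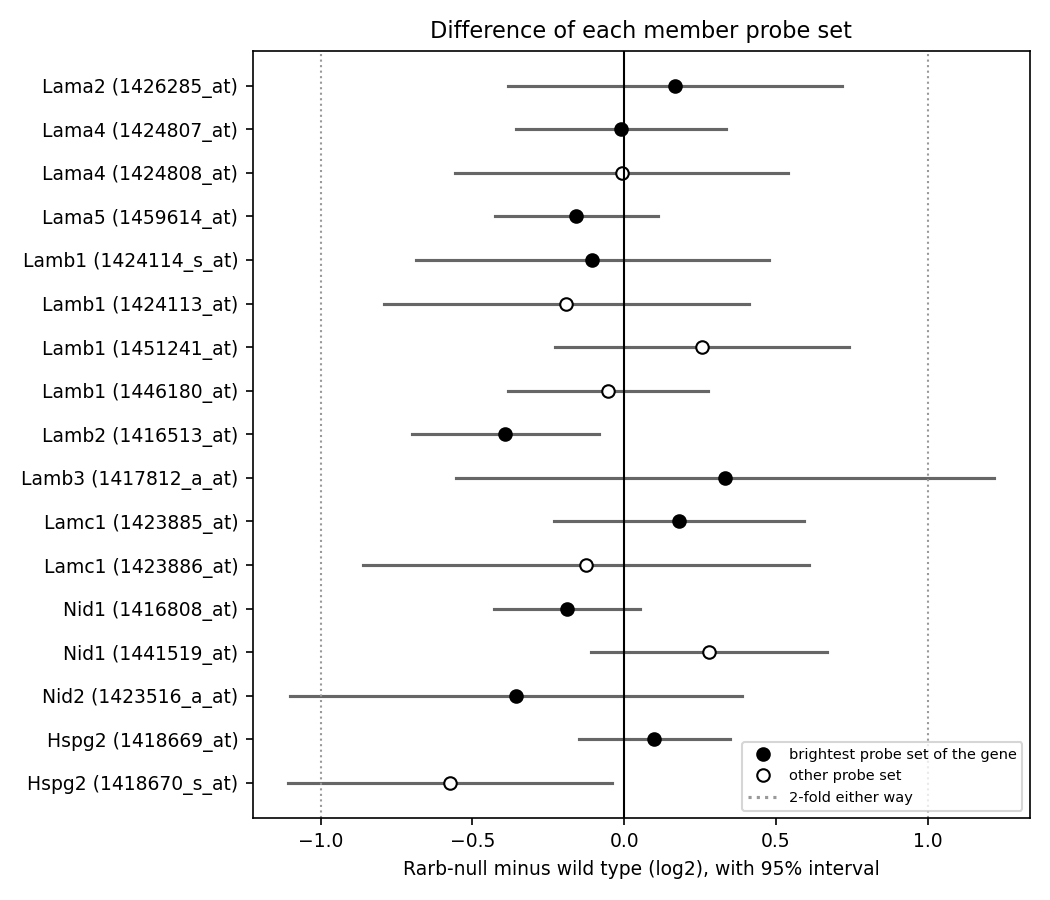
Difference of each of the 17 member probe sets, Rarb-null minus wild type in log2 units, with its 95% interval from limma; filled points are the brightest probe set of a gene, open points its other probe sets, and dotted lines mark 2-fold either way. Only the intervals of Lamb2 and of the dimmer Hspg2 probe set exclude 0, and neither passed after adjustment.

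Of the 5 members with more than 1 probe set, 4 (Hspg2, Lamb1, Lamc1 and Nid1) had probe sets of both signs, and Lama4 alone had 1 sign. The 95% intervals of 14 of the 17 probe sets excluded a 2-fold difference in either direction, where 93.2% of all probe sets did. The 3 that did not were those of Lamb3 and Nid2 and the dimmer Hspg2 set. The median standard error of a member's difference was 0.21 log2, against 0.14 over all probe sets, dim ones included. It reflects variation among the arrays, so a typical member's difference was estimated less precisely than that of a typical probe set. No interval here is corrected for how many probe sets were tested.

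Since retinoic acid receptors act by binding DNA, sequence before the start sites of 3 members is shown: Lamb1, a gene induced by retinoic acid, and Lamb2 and Hspg2, which had the smallest p-values. Each is the 250 bases before the start of transcription on the plus strand, from RefSeq on GRCm38.p6. The windows are chr12:31265043-31265292 for Lamb1, chr9:108479612-108479861 for Lamb2 and chr4:137468553-137468802 for Hspg2. Capitals mark the hexamers AGGTCA and AGTTCA, the repeat units of common retinoid response elements, and the GC box GGGCGG, each on either strand, with no overlap between different motifs.
Lamb1: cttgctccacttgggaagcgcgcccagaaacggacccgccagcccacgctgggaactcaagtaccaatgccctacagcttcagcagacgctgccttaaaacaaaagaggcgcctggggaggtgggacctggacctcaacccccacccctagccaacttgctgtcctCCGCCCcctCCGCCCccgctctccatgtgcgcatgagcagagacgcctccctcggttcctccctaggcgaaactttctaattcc
Lamb2: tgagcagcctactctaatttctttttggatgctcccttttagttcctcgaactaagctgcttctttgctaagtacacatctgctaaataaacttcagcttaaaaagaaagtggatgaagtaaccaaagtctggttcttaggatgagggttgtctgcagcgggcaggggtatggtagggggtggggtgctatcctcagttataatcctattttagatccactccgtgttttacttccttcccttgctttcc
Hspg2: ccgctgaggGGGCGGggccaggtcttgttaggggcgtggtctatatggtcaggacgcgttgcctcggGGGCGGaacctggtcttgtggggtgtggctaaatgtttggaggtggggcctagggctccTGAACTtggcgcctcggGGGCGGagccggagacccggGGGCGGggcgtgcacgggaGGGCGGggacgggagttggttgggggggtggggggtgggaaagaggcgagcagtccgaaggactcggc
The known response element of Lamb1 lies farther upstream than this window, which therefore could not hold it. The Lamb1 window held 2 GC boxes and no retinoid hexamer, the Lamb2 window none of these motifs, and the Hspg2 window 5 GC boxes and 1 AGTTCA hexamer, on the minus strand. Base composition differed widely, with 62.0% G and C for Lamb1, 43.6% for Lamb2 and 70.0% for Hspg2, against a median of 52.4% over 32851 such windows. Of all windows, 24.2% hold at least 1 of the retinoid hexamers and 32.7% a GC box, so a match in a window is common. Windows were found for 7 of the 10 genes, and the others, Lama4, Lamc1 and Nid2, were not matched. Across the 8 windows of these 7 genes (Lamb3 has 2 starts), the Hspg2 window alone held a retinoid hexamer and 4 held a GC box, those of Lama5, Hspg2, Lamb1 and Nid1.

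The members did not move as a block across arrays. Relative to its mean over the 6 arrays, the brightest probe set was above that mean in 6, 6 and 1 of the 10 genes on the Rarb-null arrays and in 4, 7 and 7 of them on the wild-type arrays, in the order of their replicate numbers. Rarb-null replicate 3 held the lowest value of 4 of the 10 genes, Lama4, Lamb1, Lamb2 and Nid1, and Hspg2 was its only gene above the mean. Over the 45 pairs of member genes, Pearson's r across the 6 arrays had a median of -0.08 and ran from -0.87 for Lama2 with Nid2 to 0.93 for Lamb2 with Nid1, and 21 pairs were above 0. These values describe 6 arrays that share the split in cell cycle markers given above, and were not tested. In the same descriptive sense, of 5766 other genes with signal above the median and an SD of at least 0.2 log2, the 5 whose pattern was most like the mean of the 10 members were Hdac1 (r = 0.997), Rrs1 (0.994), Pbdc1 (0.994), Haus1 (0.993) and Macroh2a1 (0.991). The highest of so many r values over 6 arrays is high by selection. Hdac1 read 9.88, 9.86 and 9.35 on Rarb-null arrays and 9.69, 10.01 and 9.68 on wild-type arrays, which shows the shape of that mean: lowest on Rarb-null replicate 3 and highest on wild-type replicate 2.

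**Figure D3:**
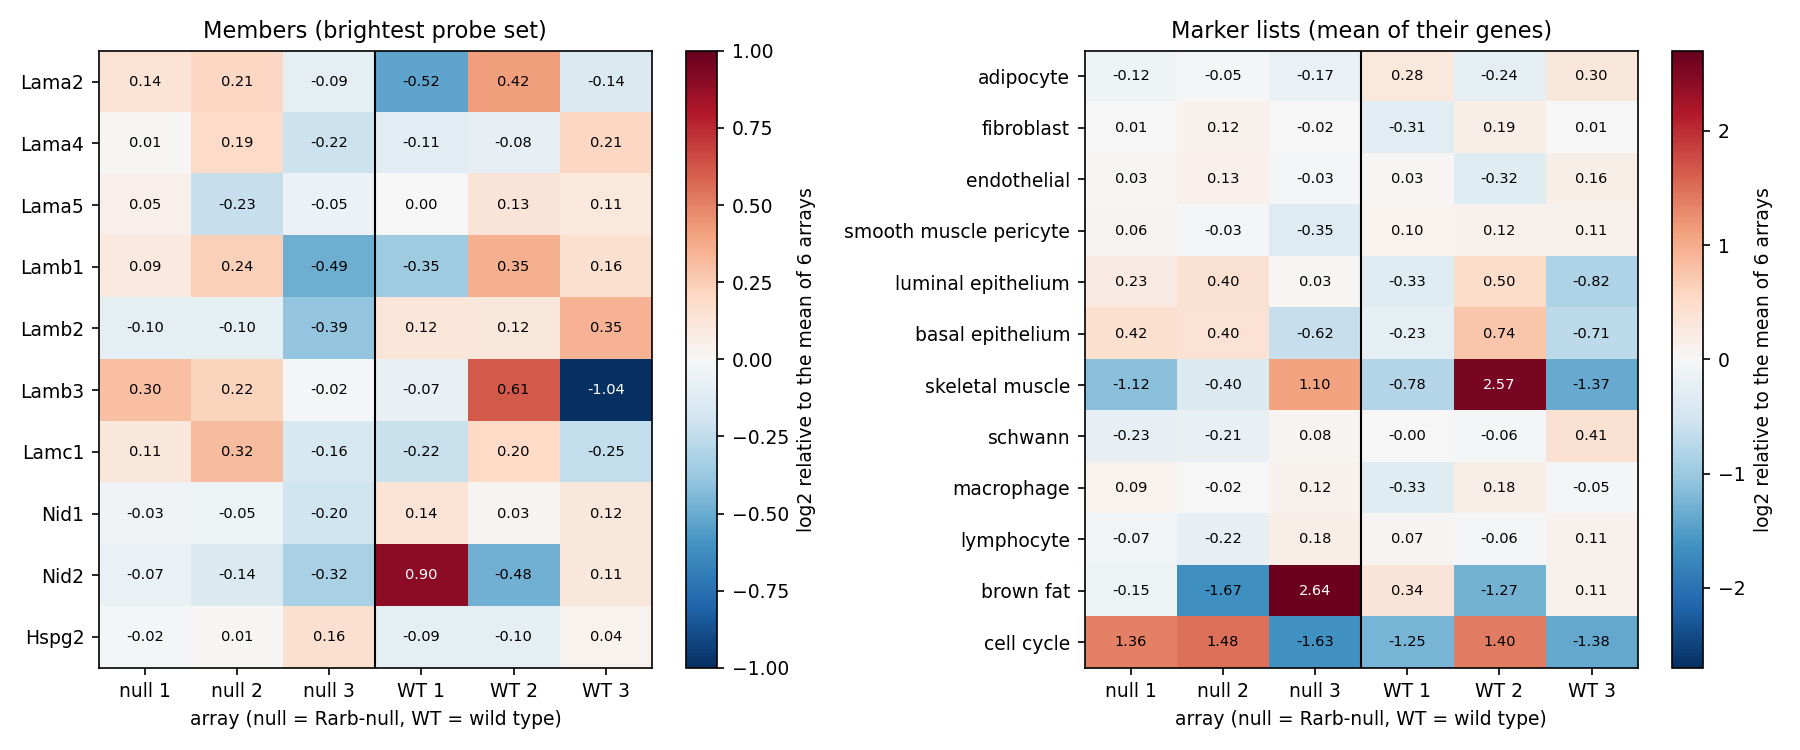
Level on each array relative to the mean of the 6 arrays, in log2 units, for the brightest probe set of each member (left) and for the mean of each marker list (right), with Rarb-null arrays left of the black line and wild-type arrays right of it; the colour scales of the panels differ. Lamb2, Nid1 and Nid2 are below their mean on all 3 Rarb-null arrays, Lamb3 is lowest on wild-type replicate 3 together with luminal epithelial markers, and cell cycle markers are high on Rarb-null replicates 1 and 2 and wild-type replicate 2.

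Genes of the same pathway likewise had 0 members past the threshold. Of 3 further laminin chains, 2 were higher and 1 lower by the Rarb-null mean, at a median of 0.19 log2 against -0.01 over all genes, of which 52.9% were lower. Lama1, the alpha chain of embryonic and epithelial basement membranes, read 8.52, 8.31 and 7.37 on Rarb-null arrays and 7.77, 8.55 and 6.74 on wild-type arrays. It was lowest on wild-type replicate 3, as were Lamb3 and the luminal markers. Lamc3 and Lama3 differed by 0.19 and -0.22 log2, the second at a dim probe set. Of the 2 further probe sets of Lamc3, 1 shared the sign, and the lowest difference among its probe sets was -0.0015 log2.

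Of 18 other basement membrane genes, 10 were higher and 8 lower by the Rarb-null mean, at a median of 0.05 log2, and the groups overlapped in all 18. Over all genes, 52.9% were lower at a median of -0.01 log2, and 10.4% of all probe sets did not overlap between groups. Col15a1, a collagen that bridges basement membrane and interstitial fibres, read 9.37 ± 0.23 in Rarb-null and 9.81 ± 0.36 in wild-type stroma. Col4a2, a chain of the collagen IV network that nidogens reach, read 11.21 ± 0.28 in Rarb-null and 11.48 ± 0.19 in wild-type stroma. Npnt, which encodes the integrin ligand nephronectin, read 8.00 ± 0.38 in Rarb-null and 7.46 ± 0.50 in wild-type stroma, and 2 of its 4 further probe sets shared the sign. Fras1, of the Fraser complex under epithelia, differed by 0.48 log2 at a dim probe set, and 2 of its 3 further probe sets shared the sign.

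Among 12 laminin receptor genes, 7 were lower and 5 higher by the Rarb-null mean, at a median of -0.03 log2, and 2 had an unadjusted p under 0.05 in limma, where 52.9% of all genes were lower and 5.22% of all probe sets had such a p. Itgb1, the beta1 integrin chain that pairs with most laminin-binding alpha chains, read 11.91, 12.24 and 12.14 on Rarb-null arrays and 11.78, 11.21 and 11.13 on wild-type arrays. All Rarb-null values were higher than all wild-type values. The means of 12.10 ± 0.17 in Rarb-null and 11.37 ± 0.35 in wild-type stroma differed by 0.73 log2, a fold of 1.65. The 95% interval ran from 0.27 to 1.18, and limma gave an unadjusted p of 0.00666 and 0.908 after adjustment. Its next 2 probe sets by signal differed by 0.58 and 0.41 log2, also without overlap. Its 2 dimmest differed by -0.15 log2, with all Rarb-null values below all wild-type values, and by 0.00 log2 with overlap, at mean signals of 4.43 and 3.66. Itga7, a laminin-binding alpha chain of muscle, had lower Rarb-null values on average, at 8.75, 8.82 and 8.44 on Rarb-null arrays and 9.59, 8.75 and 9.88 on wild-type arrays. Its groups overlapped, and its adjusted p in limma was 0.908. Like adipocyte markers, at 0.28, -0.24 and 0.30 log2 relative to their mean over the 6 arrays on wild-type replicates 1, 2 and 3, it was high on wild-type replicates 1 and 3, and the part of adipocytes was not tested. Cd151, a tetraspanin that holds laminin-binding integrins, differed by -0.38 log2, with 5 of its 6 further probe sets sharing the sign, and the syndecan gene Sdc4 by 0.38 log2, with its other probe set of the opposite sign. Dag1, which encodes dystroglycan, read 11.90 ± 0.06 in Rarb-null and 11.79 ± 0.06 in wild-type stroma. Its groups did not overlap, and its difference was 0.11 log2.

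Of 10 genes of the dystrophin complex, which links dystroglycan to the cytoskeleton, 7 were lower by the Rarb-null mean, at a median of -0.08 log2 and 1 unadjusted p under 0.05, beside the same 52.9% and 5.22%. The sarcoglycan genes Sgcd and Sgcb differed by -0.90 and -0.39 log2, and both overlapped between groups. Of the 2 further probe sets of Sgcd, 1 shared the sign, and the highest difference among its probe sets was 0.10 log2. The 1 further probe set of Sgcb shared the sign. Sgcd read 9.12, 9.17 and 8.93 on Rarb-null arrays and 10.24, 9.13 and 10.56 on wild-type arrays. It was high on wild-type replicates 1 and 3, as Itga7 and the adipocyte markers were, whose part in the Sgcd values was not tested. Utrn, the utrophin gene, differed by -0.31 log2, with 1 of its 7 further probe sets sharing the sign.

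**Figure D4:**
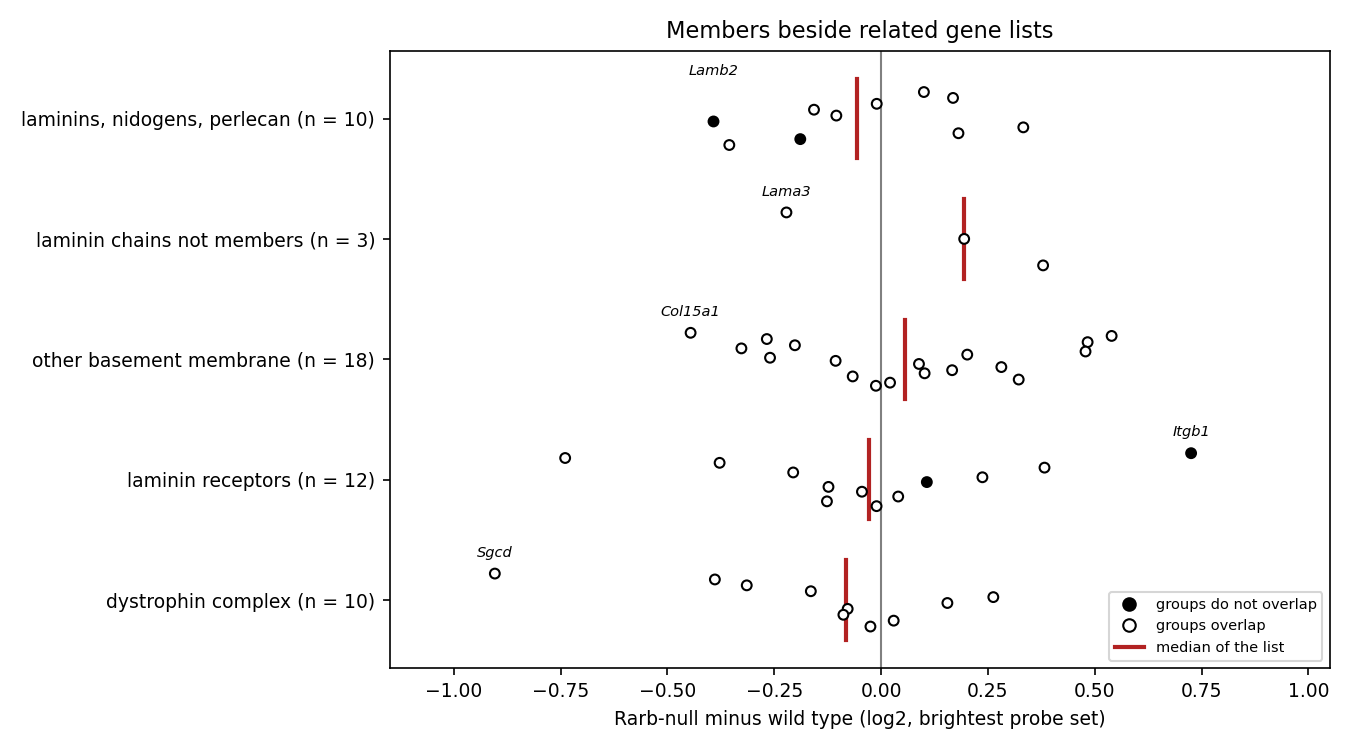
Difference of each gene's brightest probe set, Rarb-null minus wild type in log2 units, for the 10 members and for the 4 related gene lists; filled points have no overlap between groups, red lines are list medians, and the gene with the smallest p in each list is named. Differences lie on both sides of 0 in every list, from -0.90 for Sgcd to 0.73 for Itgb1, and no gene passed the threshold.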

How the data were processed

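Total RNA was extracted with Trizol and labelled with biotin by an Affymetrix protocol, per the labels. The authors deposited 1 log2 value per probe set and array. It was made with RMA (per the submitters' processing notes, version not given there); RMA removes shifts shared by most transcripts and compresses dim signal. The table has no detection flags, and the number of arrays limits precision. The authors also deposited their own comparison, per the file headers: group means, log2 fold changes, a p-value and a score, the SAM d-score. Its fold changes equalled the differences of group means within 7.4e-06.

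Of 45101 probe sets, 64 controls were left out. Symbols came from the authors' table, and for the other genes were updated through RefSeq (GRCm38.p6; 28011 current, 8412 by synonym, 3726 unmatched, 1239 with several symbols, 3649 with none). Groups were compared with limma 3.58.1 in R 4.3.3 (lmFit, eBayes, no covariates, two-sided, Benjamini-Hochberg adjustment over 45037 probe sets, threshold 0.05, 95% intervals). Each gene was represented by its brightest probe set over the 6 arrays. On simulated data for this comparison (45037 probe sets, 200 changed), 44% of 2-fold and 82% of 4-fold changes were recovered and 7 unchanged probe sets were called. Its noise was drawn independently for each probe set. The real arrays share patterns such as the split in cell cycle markers, so these rates may not hold for them.

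The members and lists were chosen with earlier results of these data known. Text names every member probe set, up to 4 related genes per list by smallest p, and the 5 genes most like the members' mean; Dag1 was named after its values were seen. Some genes of the related lists are not reported here, and the lists' counts and medians leave them out. Mki67 had no probe set naming it alone. Alternatives tried were median centring, a further quantile normalization, leaving out dim probe sets (lowest 40%, or mean under 6), a trended robust prior, array weights, the replicate number as a block, averaging a gene's probe sets, joint probe sets admitted (added after seeing the data), and leaving out each array. Plots used matplotlib 3.10.9 in Python 3.11.15.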

Additional observations from a re-analysis of the deposited data

How the results depend on the processing

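Under all 15 alternatives the adjusted p in limma stayed above 0.05 for every member. Over all probe sets the count was 0, except 1 without Rarb-null replicate 2 (0 to 1 with 1 array left out). Among 148 differences of a member gene under an alternative, 136 kept their sign and 12 changed it, with an adjusted p between 0.436 and 1. Many of the 136 could not change sign. The filters on dim probe sets, the trended robust prior and the replicate block leave a difference as it was. Joint probe sets altered only Lama5, and averaging left genes with 1 probe set unchanged. The count of 136 therefore overstates how stable the signs are. With the replicate block the smallest adjusted p of a member was 0.644 and the count past 0.05 stayed 0. Same-numbered arrays deviated from their group means with correlations of -0.20, 0.45 and 0.29, and differently numbered arrays with correlations from -0.54 to 0.38. These values do not settle whether the numbers pair the samples. Lama4 differed by 0.0026 log2 after a further quantile normalization and 0.061 with array weights, which put Lamb1 at 0.0286. Averaging a gene's probe sets gave 0.0456 for Nid1 and -0.237 for Hspg2; it mixes probe sets of both signs. With 1 array left out, the differences ran from -0.0518 to 0.42 for Lama2, -0.11 to 0.0947 for Lama4, -0.31 to 0.11 for Lamb1, -0.10 to 0.72 for Lamb3 and -0.68 to 0.0038 for Nid2. The median over the 10 genes then ran from -0.10 to 0.07, and the number of genes with a lower Rarb-null mean from 4 to 6. Lamb2 stayed negative throughout, between -0.44 and -0.29. Lamc1 and Lama5 also kept their sign under every alternative that gave them a value. With 1 array left out, so did Nid1, from -0.22 to -0.14, and Hspg2, from 0.05 to 0.14. Lama5 and the dim Nid1 probe set gave no value with dim probe sets removed. The cause of the sign changes was otherwise not tested. The dimmest member probe sets were the dim one of Nid1, at a mean signal of 5.13, and that of Lama5, at 5.28. The dimness of the second limits what can be said of Lama5.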
